A study of Mus musculus with 48 samples.

Results

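The gastrocnemius, the large calf muscle, was compared between male FVB/NJ embryos at E18.5, an embryonic day shortly before birth, and adult male mice of the same inbred laboratory strain. The 12 gastrocnemius libraries, 6 per stage and each from a different animal, were all the gastrocnemius libraries among 48 libraries of 4 hindlimb muscles, and were chosen by their muscle and stage labels alone. The labels name no engineered allele and no treatment. Sources differ on the older group, given as day 56 after birth in the series design and as 3 to 4 months in the growth protocol, and it is called adult below. Per the labels, the gastrocnemius was taken as a muscle poor in slow fibres, RNA with an integrity number above 7 was kept, and mRNA libraries were made from randomly primed cDNA. The question is what this muscle gains and loses between late fetal life and adulthood.

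Skeletal muscle fibres form by fusion of myoblasts, and in the late fetus they are thin, still receive new nuclei, and contract with embryonic and perinatal forms of myosin. After birth most of their proteins are replaced by adult forms, the membrane systems that couple excitation to contraction are completed, each fibre keeps a single nerve contact, and fibres settle into slow oxidative or fast glycolytic types. The tissue around them, made of fibroblasts, vessels, nerves and tendon, turns from building matrix to maintaining it. In whole tissue, fewer cells of a type and less RNA per cell cannot be told apart, and this holds for every fall and rise below.

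Totals, in units of 1e6 counts, ran from 19.2 to 31.2 per library, with a median of 21.45 in adults and 22.05 at E18.5, so depth did not separate the stages. A count of 0 allows up to 3 counts, which after the scaling described next was 0.150 to 0.238 CPM (counts per 1e6) in adult and 0.0633 to 0.0985 CPM in E18.5 libraries, and covers counting error only. The 20 most abundant genes took 34.2% to 39.8% of each adult library but 12.2% to 14.7% of each E18.5 library. Levels are given as CPM after edgeR's TMM scaling, which corrects for this by a factor near the typical gene. Against library totals every log2 change lies lower by a median of 1.10, so rises read smaller and falls larger. Stage set the first principal component, with 88.4% of the variance of log2 CPM. The second, with 2.56%, set adult libraries A and D apart from the other 4 adults, and slow-fibre results are therefore given with and without them. Embryos came from 4 dates and adults from 5, with none shared, so stage and date cannot be told apart. The letters A to F name the 6 date tags of each stage in the column headings, were given here in table order, and do not link the stages. E18.5 libraries C, D and E share a date, as do adult libraries D and E, and all libraries were treated as independent. P-values set the difference tested against the spread between these libraries.

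Of 14667 genes with enough counts to test, 12052 (82.2%) passed the test between stages (edgeR's quasi-likelihood test, Benjamini-Hochberg adjusted p under 0.05), 5601 higher (38.2%) and 6451 lower (44.0%) in the adult. A stricter test asks whether a change exceeds 2-fold, and all counts of gene lists between the stages below use it. List counts for the differences between muscles use a test against no difference. The stricter test was passed by 6384 genes (43.5%), of which 2785 rose (19%) and 3599 fell (24.5%). Those shares are the background for the list counts of rises and falls below. The estimate was over 8-fold up for 598 genes and over 8-fold down for 1336. The stages did not overlap for 9934 genes (67.7%). All 6 adult libraries lay above all 6 E18.5 libraries for 4580 genes (31.2%) and below them for 5354 (36.5%). The median log2 change over all genes tested was -0.12. With library totals, 2372 genes were called higher and 10649 lower, and 1061 genes rose and 7343 fell beyond 2-fold. Of the 5601 genes called higher above, 2551 had a negative log2 change with library totals. None of the 2785 rises beyond 2-fold did, which the threshold of 1 log2 unit nearly fixes, since the median shift was 1.10. Of the 6384 genes beyond 2-fold, all are in the authors' deposited table for the fast-biased muscles, a class that in the labels holds gastrocnemius and vastus lateralis, and 1 had the other sign there. That gene was Mybph, at 0.31 in the authors' deposited table and -1.79 here. The authors' class includes the gastrocnemius libraries used here, so the signs are not an independent check.

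**Figure D1:**
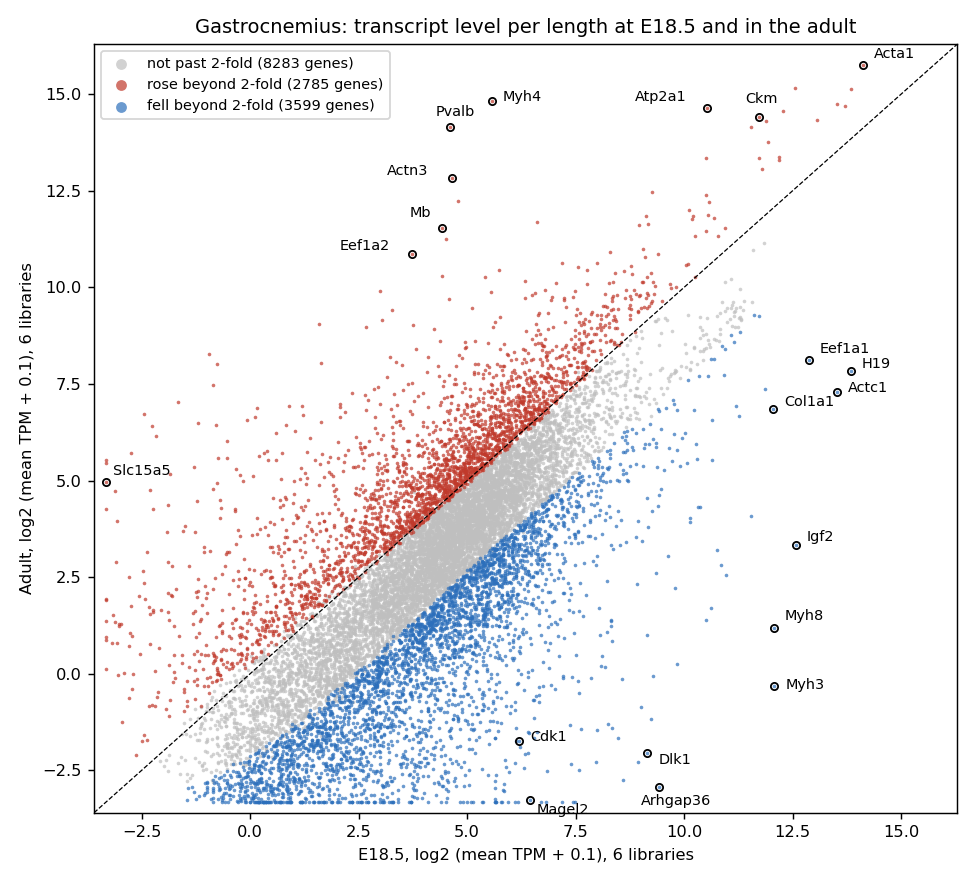
Each point is a tested gene, with its mean level per transcript length (transcripts per 1e6, TPM, plus 0.1, log2) over 6 E18.5 libraries on the x axis and over 6 adult libraries on the y axis. Red genes rose and blue genes fell beyond 2-fold, the dashed line marks equal levels, and Myh4, Pvalb and Actn3 lie far above it while Myh3, Dlk1 and Arhgap36 lie far below. The calls use the TMM scale, so the grey band lies below the line of equal TPM.

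The genes at the top of the transcript scale changed. Per length, Acta1, the skeletal alpha-actin, was the most abundant transcript at both stages, with a mean of 17904 TPM at E18.5 and 54877 TPM in the adult. Behind it at E18.5 stood H19, an imprinted noncoding RNA, at 14775 TPM, and further down Actc1, the cardiac alpha-actin, at 11782, Igf2, the fetal insulin-like growth factor, at 6128, and Col1a1, the main chain of type I collagen, at 4235. In the adult those 4 genes stood at 226, 158, 10.02 and 115 TPM. Near the top in the adult stood Tnnt3, the fast troponin T, at 36432 TPM, which already held rank 10 at E18.5 with 5991.5 TPM. With it stood Myh4, the IIb myosin heavy chain, at 29012 TPM, and Atp2a1, the fast calcium pump of the reticulum, at 25651. Ckm, the muscle creatine kinase, was at 21781 TPM and Pvalb, the calcium buffer parvalbumin, at 18190.0.

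**Figure D2:**
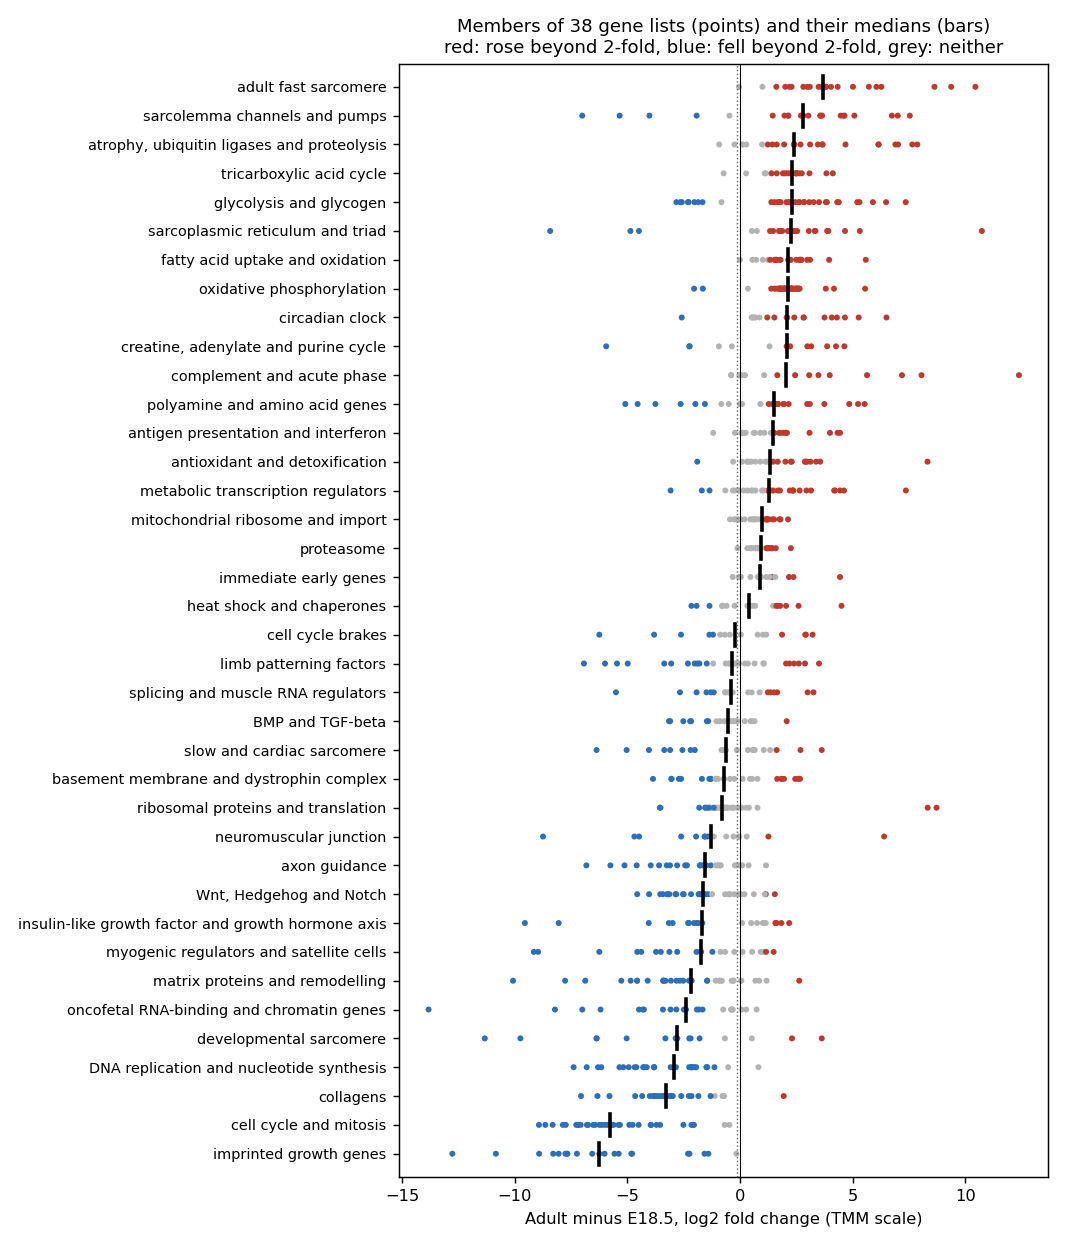
Each row is a gene list, each point a member with its log2 change from E18.5 to adult, and each black bar the median of the list. The dotted line marks the median of all tested genes (-0.12), and medians run from -6.25 for imprinted growth genes and -5.78 for the cell cycle to 3.68 for the adult fast sarcomere. The points of genes with no count at a stage, such as Igf2bp1, depend on the fit's prior count.

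Myosin heavy chains drive contraction, and fetal muscle uses forms that the adult limb has largely given up. Myh3, the embryonic form, was at 5536, 7336 and 8168 CPM (lowest, median and highest of the 6 libraries, the order used throughout) at E18.5 and at 0.769, 2.44 and 6.18 CPM in the adult, a log2 change of -11.33 ± 0.45 (SE; adjusted p for a change beyond 2-fold = 4.72e-12). Myh8, the perinatal form, was at 4880.4, 7222 and 9113 CPM and then 6.02, 8.43 and 11.1 CPM (-9.75 ± 0.25). Neither gene's libraries overlapped between the stages, and in every E18.5 library the pair stood far above all other myosins. Myh4 moved from 47.5, 77.8 and 107 to 82380.0, 108780.0 and 139200.0 CPM (10.46 ± 0.31, adjusted p = 1.66e-13). Myh1, the IIx form, rose from 45.5, 69.4 and 104 to 1053, 4687 and 8575 CPM (6.06 ± 0.52) and Myh2, the IIa form, from 115, 187 and 243 to 715, 4035 and 6940.4 CPM (4.34 ± 0.49). Adult libraries differed widely in Myh1 and Myh2, although the lowest of them was still above every E18.5 library. Of the counts of 6 heavy chain genes, Myh3 took 47.3% ± 5.90 (SD, n = 6) and Myh8 47.7% ± 5.90 at E18.5, and these 6 genes together rose from 2.21% to 8.13% of all counts. The E18.5 remainder held Myh7, the slow form, at 2.81% ± 0.587, and Myh2 at 1.21% ± 0.174. These genes are close paralogs, and reads that fit several of them make the smallest shares uncertain.

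**Figure D3:**
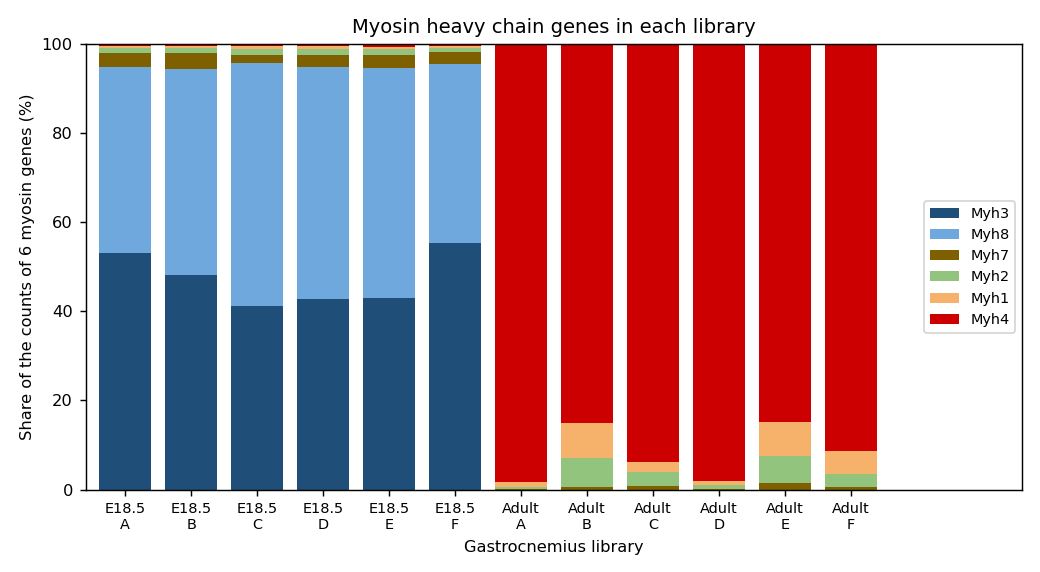
Each bar is a library, 6 at E18.5 and 6 in the adult, and each colour the share (%) of a myosin heavy chain gene in the summed counts of 6 such genes. Myh3 and Myh8 fill the E18.5 bars, and Myh4 takes 84.9% to 98.4% of the adult bars.

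The sequences just before the transcription starts of these genes are shown because the pair Myh3 and Myh4 lies in a single cluster on chromosome 11 yet moved in opposite directions, as did the actin pair Acta1 and Actc1. Each is the 150 bases before the start, 5′ to 3′ on the gene's strand, from RefSeq (GRCm38.p6), and lies upstream of the first exon. Capitals mark a CArG box, the element bound by serum response factor, the E-box CAGCTG of myogenic factors, and a TATA box (TATAAA starting 20 to 40 bases before the start). The genes are Myh4 (NCBI gene 17884), Myh3 (17883), Acta1 (11459) and Actc1 (11464). The Myh4 window is chr11:67237662-67237811 on the plus strand, the Myh3 window chr11:67078150-67078299 on the plus strand, the Acta1 window chr8:123894776-123894925 on the minus strand and the Actc1 window chr2:114052876-114053025 on the minus strand.
Myh4: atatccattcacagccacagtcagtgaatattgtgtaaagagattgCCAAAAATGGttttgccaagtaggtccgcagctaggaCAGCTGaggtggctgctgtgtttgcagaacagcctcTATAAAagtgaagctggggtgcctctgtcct
Myh3: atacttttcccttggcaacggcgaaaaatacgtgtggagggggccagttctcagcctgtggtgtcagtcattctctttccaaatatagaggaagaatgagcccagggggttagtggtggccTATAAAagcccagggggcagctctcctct
Acta1: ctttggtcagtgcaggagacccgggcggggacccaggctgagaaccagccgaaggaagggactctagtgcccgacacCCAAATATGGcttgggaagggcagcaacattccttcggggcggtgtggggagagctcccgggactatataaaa
Actc1: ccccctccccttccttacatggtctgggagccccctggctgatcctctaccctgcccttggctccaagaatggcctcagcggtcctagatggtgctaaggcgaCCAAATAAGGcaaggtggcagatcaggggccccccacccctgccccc
A CArG box stood in the windows of Myh4, Acta1 and Actc1, that is, before genes that rose and before a gene that fell. Windows were found for 11229 of the 14667 tested genes. Both strands were searched, and the CArG box was in 4 of the 12 fast sarcomere genes that rose and had a window (33.3%), against 86 of all 11229 (0.766%). The TATA box was in 2 of these 12 (16.7%) against 1.28% of all. A match is a description of the letters and not a bound site.

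Nearly the whole fast sarcomere list rose. Of its 24 members 22 rose beyond 2-fold and none fell, with a median log2 change of 3.68, and the list grew from 3.68% ± 0.653 of all counts to 25.2% ± 1.97. The list is not made of fast forms alone, since it also holds Ttn, Acta1, Neb and Actn2. Of all counts, Ttn took 0.631% at E18.5 and 3.81% in the adult, Acta1 1.03% and 3.40%, and Neb 0.23% and 1.52%. Actn3, the fast alpha-actinin of the Z-disc, went from 4.31, 17.8 and 34.6 to 9817, 12954 and 17147 CPM (9.38 ± 0.52), and Mybpc2, the fast myosin-binding protein C, from 5.62, 25.9 and 52.2 to 8858, 10366 and 13663 CPM (8.64 ± 0.53). In both genes the E18.5 libraries spread several-fold among themselves, but the gap to the adult was far wider than this spread. The Z-disc genes Tcap (6.28) and Myoz3 (5.72) and the light chain kinase Mylk2 (5.02) followed. Genes already abundant before birth rose less. The fast troponins Tnnt3, Tnni2 and Tnnc2 rose by log2 changes of 3.80, 3.62 and 3.49, the giant proteins nebulin (Neb, 3.83) and titin (Ttn, 3.69) by similar amounts, and Acta1 by 2.81. Actn2, the alpha-actinin of all fibres, was at 1189, 1619.8 and 1752 CPM at E18.5 and 509, 1612 and 2465 CPM in the adult and did not pass (adjusted p = 0.904).

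The developmental sarcomere list moved the other way, with 12 of 16 members down beyond 2-fold, 2 up and a median of -2.81. Actc1 fell from 3159.6, 4763 and 5308 to 53.8, 120.0 and 275 CPM (-5.03 ± 0.32). Tnnt2, the cardiac troponin T, was at 221, 286 and 342 CPM and then 0.953, 3.90 and 4.76 CPM, and Myl4, the embryonic essential light chain, at 332, 412 and 509.7 and then 3.22, 4.15 and 9.73 CPM, with the same log2 change of -6.37. The smooth muscle actin gene Acta2 (-3.31) and the intermediate filament genes vimentin (Vim, -2.86) and nestin (Nes, -2.83), which immature fibres and many other cells use, also fell. The 2 members that rose were Nrap (3.63), a scaffold of forming myofibrils, and desmin (Des, 2.31), the intermediate filament of adult fibres.

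Slow and cardiac sarcomere genes had no common direction, and adult libraries A and D set their spread. Of 21 members 3 rose and 8 fell beyond 2-fold (median -0.62). Myh7 was at 237, 475 and 545 CPM at E18.5 and 14.8, 747 and 1423 CPM in the adult, where libraries A and D held 27.1 and 14.8 CPM and the other 4 held 704 to 1423 CPM. It did not pass the test with all libraries (0.64 ± 0.73, adjusted p = 0.421), and rose by a log2 change of 1.21 (adjusted p = 1.60e-04) with A and D left out. With all libraries the log2 change of Myh7 was -0.65 with limma-voom and -0.44 with library totals, and it passed with neither, so its direction is not settled. Tnni1, the slow troponin I, fell from 280.4, 368 and 446 to 1.54, 95.7 and 166 CPM (-2.19 ± 0.68, adjusted p beyond 2-fold = 0.0416), and by 1.63 without A and D (adjusted p beyond 2-fold = 5.30e-04). It was not past 2-fold without adult library F (adjusted p = 0.0568) or E18.5 library F (adjusted p = 0.0508). Myl2, the slow regulatory light chain, rose from 17.5, 44.8 and 54.4 to 19.1, 303 and 508 CPM (2.69 ± 0.63), and by 3.23 without them. The slow troponin genes Tnnt1 (-0.82) and Tnnc1 (-0.75) passed neither way (adjusted p = 0.243 and 0.324 with all libraries, 0.163 and 0.368 without A and D), whereas limma-voom called both lower, by -1.87 and -2.06. What sets A and D apart was not tested.

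Calcium handling shifted to its adult form. The sarcoplasmic reticulum and triad list, the store and release machinery of the fibre, had 19 of 24 members up (12 with library totals) and 3 down beyond 2-fold (median 2.28). Atp2a1 rose from 828, 1404 and 1779 to 50153, 54907 and 63734 CPM (5.32 ± 0.21). Pvalb, which binds calcium in fast fibres, rose from 1.33, 6.04 and 10.6 to 8186, 10069 and 12655 CPM (10.74 ± 0.55, adjusted p = 7.19e-11). The lowest adult library thus lay far above the highest E18.5 library. The release channel Ryr1 (3.90), the voltage sensor Cacna1s (3.87), triadin (Trdn, 4.66), the junctophilins Jph1 (3.35) and Jph2 (3.32) and the fast calsequestrin Casq1 (3.92) rose together. The 3 that fell were Sln, encoding the pump inhibitor sarcolipin, at 68.97, 141 and 160.5 CPM and then 0, 0.268 and 0.853 CPM (-8.43 ± 0.36), the cardiac calsequestrin Casq2 (-4.86) and the second release channel Ryr3 (-4.49). Atp2a2, the slow and cardiac pump, did not pass with all libraries (0.53 ± 0.45, adjusted p = 0.288), and its adult libraries ran from 114 to 1513 CPM. Without adult libraries A and D it rose by 1.02 (adjusted p = 4.53e-05), though not past 2-fold (adjusted p = 0.413).

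Channels and pumps of the fibre surface rose in 18 of 23 cases and fell in 4 (median 2.81). Clcn1, the chloride channel that stabilises the resting membrane, rose from 7.22, 11.9 and 15.3 to 342, 390.3 and 486 CPM (5.08 ± 0.17), and Scn4a, the adult muscle sodium channel, from 40.97, 51.6 and 62.6 to 1106, 1251 and 1480.1 CPM (4.65 ± 0.13). The potassium channel gene Kcna7 (7.01) rose as well. Among the 4 that fell were Cacna1h, a T-type calcium channel (-5.34), Kcnn3, a calcium-activated potassium channel (-1.93), and Atp1b4, which went from 416, 649 and 823 to 2.10, 5.02 and 8.42 CPM (-7.01 ± 0.30).

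At the nerve contact the acetylcholine receptor exchanged its fetal subunit. Chrng, the fetal gamma subunit, was at 120.1, 133 and 148 CPM at E18.5 and at 0.0680, 0.352 and 0.566 CPM in the adult (-8.75 ± 0.20). Chrne, the adult epsilon subunit, was at 0.0844, 0.255 and 0.372 CPM and then 14.7, 19.8 and 25.4 CPM (6.40 ± 0.26), so each library showed a single dominant subunit. Of the 16 members of the junction list 8 fell and 2 rose, with a median of -1.30. The other receptor subunits Chrna1 (-1.55) and Chrnd (-4.48) and the clustering signal agrin (Agrn, -2.61) fell, and the kinase Musk was the second gene that rose (1.26 ± 0.15, adjusted p = 0.0281). The 2-fold call for Musk was lost without adult library F (adjusted p = 0.0974), and with library totals its log2 change was 0.17. Dok7, the adaptor of that kinase, was at 13.9, 16.6 and 22.5 CPM and then 13.97, 16.4 and 19.9 CPM and did not pass (adjusted p = 0.793).

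Genes of myoblasts and fusion fell, with 13 of 22 myogenic and satellite cell genes down, 2 up and a median of -1.74. Mymk, encoding the fusion protein myomaker, was at 113, 132 and 149.6 CPM and then 0, 0.207 and 0.605 CPM (-8.97 ± 0.29). Its partner Mymx, which encodes myomixer, was at 10.3 to 18.9 CPM at E18.5 and had 2 counts in all adult libraries together. Myog, the differentiation factor myogenin, fell from 158, 207 and 255 to 4.27, 9.95 and 14.5 CPM (-4.38 ± 0.22). The satellite cell factor Pax7 (-3.13), the early myoblast factor Myf5 (-3.51) and the cell cycle inhibitor Cdkn1c (-6.25) fell too. Myf6, the myogenic factor most tied to mature fibres, rose from 30.1, 44.1 and 55.2 to 107, 127 and 140.2 CPM (1.50 ± 0.13), and Myod1 did not pass the 2-fold test (-0.86 ± 0.16, adjusted p = 0.93).

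Glycogen breakdown and glycolysis, which fuel short fast contractions, rose in 26 of 35 genes and fell in 8, and the list grew from 1.35% ± 0.192 to 5.13% ± 0.333 of all counts. Pygm, the muscle glycogen phosphorylase, rose from 276, 489 and 608 to 8615, 10335 and 11348 CPM (4.39 ± 0.19). The subunits of its kinase Phkg1 (6.49) and Phka1 (5.90) rose more steeply, and Gpd1, the shuttle enzyme that returns cytosolic NADH to the mitochondrion, rose from 3.36, 7.42 and 10.7 to 987, 1199 and 1406 CPM (7.36 ± 0.27). The muscle phosphofructokinase Pfkm (3.86), aldolase Aldoa (3.81), the mutase Pgam2 (3.08) and lactate dehydrogenase Ldha (2.16) carried the abundant middle of the pathway. The genes that fell included forms best known from other tissues, for example the liver phosphofructokinase Pfkl (-2.82) and the brain form of the mutase, Pgam1 (-2.64). Among 13 creatine and adenylate genes 7 rose and 3 fell. Ckm went from 696, 1329 and 1735 to 17323, 19510.0 and 21441 CPM (3.87 ± 0.20) and the mitochondrial creatine kinase Ckmt2 rose by 4.64, whereas Gatm, which makes the creatine precursor, fell from 144, 196 and 262 to 1.51, 3.17 and 4.72 CPM (-5.94 ± 0.23).

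Mitochondrial energy genes rose as a group, although less than the fast sarcomere. In the tricarboxylic acid cycle 18 of 22 genes rose and none fell (median 2.30), in oxidative phosphorylation 39 of 42 rose and 2 fell (2.12), and in fatty acid uptake and oxidation 20 of 25 rose and none fell (2.14). With library totals the rises were 19 in oxidative phosphorylation and 9 in fatty acid oxidation. Cs, citrate synthase, rose from 196, 246 and 301 to 1251, 1423 and 1681 CPM (2.51 ± 0.11). Ucp3, a mitochondrial carrier of muscle, rose from 2.93, 4.37 and 6.11 to 143, 204 and 303 CPM (5.59 ± 0.22), and Pdk4, the kinase that holds back pyruvate oxidation, from 12.9, 27.2 and 34.9 to 146, 432 and 841 CPM (4.12 ± 0.41). The 2 respiratory genes that fell were Cox8a (-2.04) and Cox6a1 (-1.65), the forms of 2 cytochrome c oxidase subunits found in most tissues. All 13 protein genes of the mitochondrial genome rose beyond 2-fold without overlap, from 2.15 for ND3 to 3.25 for ATP6 on the log2 scale (2.16 for ATP6 without adult library F, which held 142 CPM against 16.1 to 21.3), and COX1, the most abundant, went from 4810.2, 5968 and 7614 to 28722, 35533 and 42024 CPM. The machinery that builds mitochondria rose less. Of 25 genes of mitochondrial ribosomes and import 11 rose and none fell, and their median of 0.97 becomes -0.12 with library totals, where none rose. With upper-quartile scaling 5 rose.

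Oxygen storage and its regulators followed. Mb, which encodes myoglobin, was at 3.91, 8.05 and 9.52 CPM at E18.5 and at 619, 2462 and 4121 CPM in the adult (8.33 ± 0.55). Its low adult libraries were A and D, at 619 and 707 CPM, and without them the log2 change was 8.77. Among 33 transcription regulators of metabolism 18 rose (11 with library totals) and 3 fell (median 1.30). Thrb, a thyroid hormone receptor, rose from 0.155, 0.269 and 0.486 to 45.2, 52.9 and 56.5 CPM (7.37 ± 0.17), while the other thyroid hormone receptor gene, Thra, was at 76.6, 98.7 and 109.9 CPM and then 77.1, 79.6 and 89.7 CPM (-0.25 ± 0.09). The estrogen receptor Esr1 (4.18) and the orphan receptor Nr4a1 (4.44) rose, and the mitochondrial coactivator Ppargc1a went from 12.1, 19.3 and 26.4 to 80.6, 96.8 and 117 CPM (2.37 ± 0.18). Tead4, a Hippo pathway factor of myoblasts, fell (-3.08).

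Many of these changes paired a fetal or general form with an adult muscle form of the same protein. In 33 such pairs, the share of the muscle or adult form in the pair's counts per base was higher in all adult than in all E18.5 libraries in 30. The adult form rose beyond 2-fold in 32 pairs and its partner fell beyond 2-fold in 22, with both in 21. Over all tested genes 19% rose and 24.5% fell beyond 2-fold, and 67.7% did not overlap between the stages. Each pair was chosen to set a known fetal or general form against a known adult or muscle form, so these counts are a description and no test. In 12 pairs the larger member changed. Casq1 went from 28.97% ± 4.08 (SD, n = 6) of the calsequestrin pair to 99.4% ± 0.374, Cox8b from 24.1% ± 3.17 of its pair to 96.0% ± 0.712, and the insulin-regulated glucose transporter Slc2a4 from 37.7% ± 5.10, against Slc2a1, to 97.5% ± 0.584. Alpha-tropomyosin Tpm1 went from 28.1% ± 2.96 to 82.2% ± 11.6 against Tpm2, and dystrophin (Dmd) from 36.7% ± 2.00 to 78.4% ± 1.37 against utrophin (Utrn). The 3 pairs that overlapped between stages were Ldha with Ldhb, Atp1b2 with Atp1b1, and Cpt1b with Cpt1a. The Myl1 share against Myl4, 14.1% ± 14.2 at E18.5 and 96.6% ± 6.35 in the adult, is uncertain, since Myl1 spread from 14.02 to 253 CPM between E18.5 libraries.

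**Figure D4:**
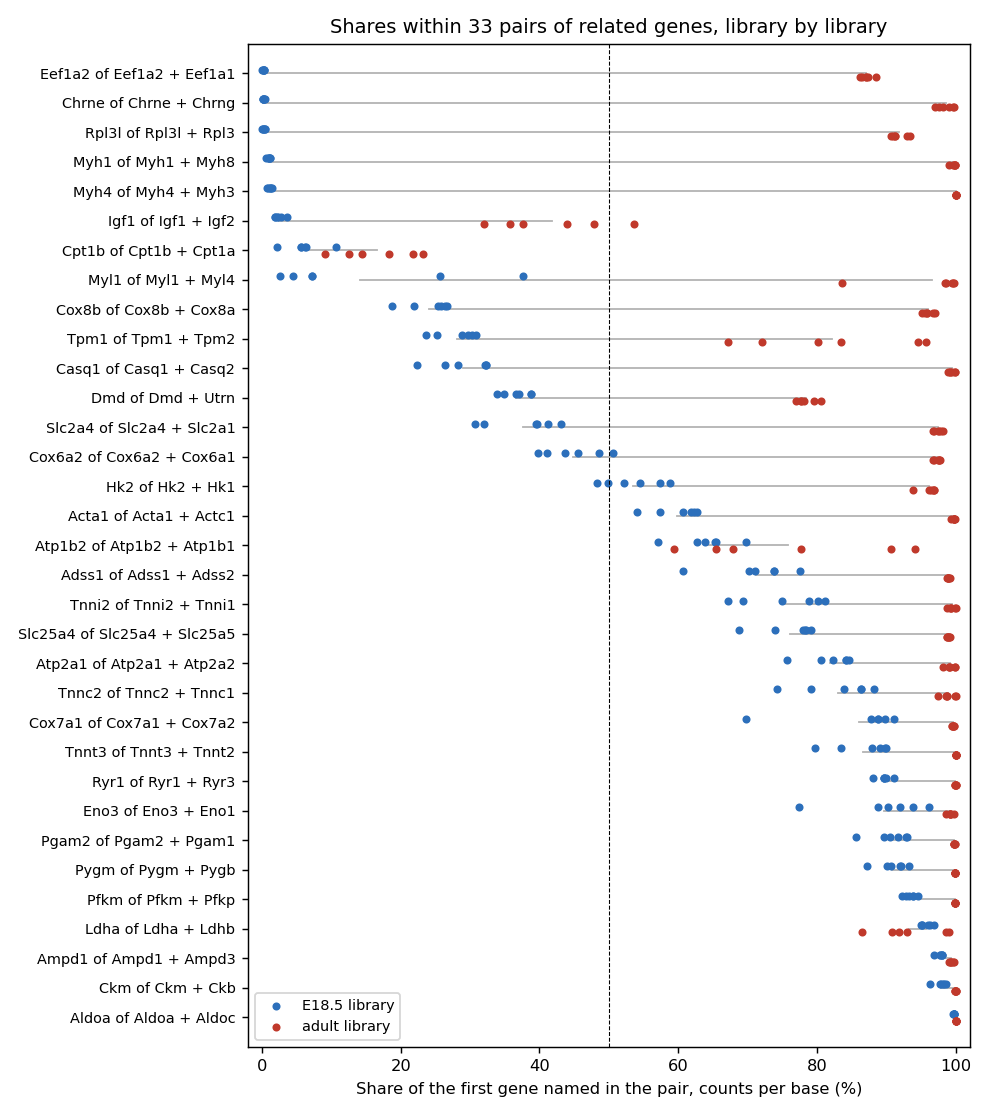
Each row is a pair of related genes, with the share (%) of the first gene named in the pair's counts per base in each E18.5 library (blue) and each adult library (red), and a grey line between the stage means. Most blue points lie to the left of all red points, and the pairs run from Eef1a2 with the lowest E18.5 share at the top to Aldoa with the highest at the bottom.

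Translation factors were among the pairs whose larger member changed. Eef1a1, the general elongation factor, fell from 3531, 3710.5 and 3895 to 255, 328 and 359 CPM (-3.56 ± 0.11). Eef1a2, its muscle and neuron form, rose from 1.52, 7.70 and 13.3 to 2139.7, 2471 and 2644 CPM (8.34 ± 0.46), which took it from 0.177% ± 0.108 to 87.1% ± 0.763 of the pair per base. Rpl3, a protein of the large ribosomal subunit, fell from 416, 468 and 535 to 32.2, 44.5 and 45.8 CPM, and Rpl3l, its muscle form, rose from 0.253, 1.17 and 2.37 to 502, 532 and 560.1 CPM, from 0.237% ± 0.155 to 91.8% ± 1.14 of the pair. Of 32 ribosomal protein and translation genes 8 fell and 2 rose beyond 2-fold (median -0.78), and 26 fell with library totals and 13 with upper-quartile scaling. The 8 falls lay near the share of all tested genes that fell, 24.5%. These genes have many near-identical copies in the genome, so their absolute counts are uncertain.

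Proteolysis and clock genes rose more often than they fell. Of 25 genes of atrophy, ubiquitin ligases and proteolysis 19 rose and none fell (median 2.42). Fbxo32, the ligase atrogin, rose from 1.01, 1.28 and 1.81 to 126, 159 and 280.2 CPM (7.02 ± 0.22), Fbxo40, a muscle ligase of the insulin pathway, from 1.21, 1.82 and 3.49 to 379, 413 and 514 CPM (7.65 ± 0.25), and Trim63, the ligase MuRF, by 3.66. The core proteasome rose in 10 of 27 genes, with a median of 0.91 that becomes -0.18 with library totals, where none rose. With upper-quartile scaling 6 rose. Of 19 clock genes 13 rose (8 with library totals) and 1 fell (median 2.10). The orphan receptor Rora (4.66), Dbp, an output factor of the clock (4.31), and Nr1d2, a repressor in its core loop (4.08), rose, and Npas2, a partner of Bmal1, fell (-2.59). No hour of collection was used, since the labels name none, and a clock gene's level depends on it. Among 19 heat shock and chaperone genes 6 rose (2 with library totals) and 3 fell, and Hspb6, a small heat shock protein of muscle, went from 13.2, 33.2 and 45.9 to 398, 746 and 1127 CPM (4.51 ± 0.33).

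Cell division genes fell almost throughout. Of 34 cell cycle and mitosis genes 32 fell beyond 2-fold and none rose (median -5.78), and the list shrank from 0.292% ± 0.0306 of all counts to 0.00988% ± 0.00119. Mki67, the proliferation marker, fell from 246, 264 and 332 to 1.39, 2.21 and 6.22 CPM (-6.43 ± 0.31), and Top2a, the topoisomerase of dividing cells, from 213, 227 and 287 to 0, 0.902 and 1.91 CPM (-7.87 ± 0.35). No adult library came near the lowest E18.5 library in either gene. Cdk1, the kinase that starts mitosis, fell from 53.9, 57.3 and 62.5 to 0.0699, 0.394 and 0.635 CPM (-7.27 ± 0.20), and its cyclins Ccnb1 (-8.32) and Ccnb2 (-6.14) fell with it. Of 33 genes of DNA replication and nucleotide synthesis 31 fell and none rose (median -2.94), among them the helicase subunit Mcm6 (-6.30), the replication factor Mcm10 (-6.81), the methylation adaptor Uhrf1 (-7.39) and the sliding clamp Pcna (-2.01). Ccne2 (-0.68), Aurka (-0.47), Rfc4 (-0.52) and the uracil glycosylase Ung (0.82) did not pass the 2-fold test.

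The windows before 3 of these genes are shown because they fell together and all hold a CCAAT box, while a second element is in the Cdk1 and Top2a windows and not in that of Ccnb2. Capitals mark the CCAAT box (CCAAT, or ATTGG when read on the other strand) and the cell cycle homology region, or CHR (TTTGAA, or TTCAAA on the other strand), which do not overlap each other. The Cdk1 window is chr10:69352913-69353062, the Top2a window chr11:99024190-99024339 and the Ccnb2 window chr9:70421555-70421704, all on the minus strand of GRCm38.p6, from RefSeq, and upstream of the first exon.
Cdk1: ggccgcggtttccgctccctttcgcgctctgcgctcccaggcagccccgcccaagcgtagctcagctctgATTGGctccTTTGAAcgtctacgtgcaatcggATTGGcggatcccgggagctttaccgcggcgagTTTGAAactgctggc
Top2a: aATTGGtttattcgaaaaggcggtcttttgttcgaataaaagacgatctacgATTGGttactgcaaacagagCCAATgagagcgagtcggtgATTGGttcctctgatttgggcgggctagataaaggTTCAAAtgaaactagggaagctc
Ccnb2: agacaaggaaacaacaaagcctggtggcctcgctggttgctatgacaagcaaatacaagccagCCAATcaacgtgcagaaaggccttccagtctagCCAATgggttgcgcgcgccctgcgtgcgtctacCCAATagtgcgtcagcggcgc
The CCAAT box was in 19 of the 25 cell cycle genes that fell and had a window (76.0%) and in 16 of 26 replication genes (61.5%), against 3140 of all 11229 windows (28%). The CHR was in 6 of the 25 (24%) against 5.29% of all. The E2F site TTCCCGCC was in none of the 25 and in 4 of the 26 replication genes (15.4%), against 2.51% of all. These are matches of letters in a short window and say nothing of which factors bind there.

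Imprinted growth genes had the lowest median of the 50 lists. Of 21 tested members 20 fell beyond 2-fold and none rose (median -6.25), and together they went from 4.56% ± 0.148 of all counts to 0.0626% ± 0.00628. H19 fell from 8203, 10474 and 12324 to 186, 390.0 and 493 CPM (-4.82 ± 0.23) and Igf2 from 6676, 6998 and 7596 to 23.6, 25.7 and 31.9 CPM (-8.05 ± 0.14, adjusted p = 1.79e-15). Dlk1, a Notch-related ligand of immature muscle and fat cells, fell from 595, 767 and 844 to 0.150, 0.449 and 0.635 CPM (-10.84 ± 0.19). Mest (-7.24), Peg10 (-8.29), Peg3 (-5.57), Plagl1 (-8.92) and the receptor adaptor Grb10 (-4.79) fell, and Magel2, at 101 to 133 CPM before birth, had 1 count in all adult libraries together. The amino acid transporter Slc38a4 was the member that did not pass, at 163, 174 and 197 CPM and then 93.1, 153 and 235 CPM (adjusted p = 0.357).

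The wider growth axis fell in part. Of 21 insulin-like growth factor and growth hormone genes 11 fell and 4 rose (median -1.67). Igf1, the postnatal growth factor, fell from 250.3, 309.7 and 452 to 22.5, 39.3 and 50.4 CPM (-3.16 ± 0.20), less than Igf2, so that its share of the pair per base rose from 2.44% ± 0.614 to 41.8% ± 8.12. The receptors Igf1r (-2.04) and Igf2r (-2.30) fell, while the growth hormone receptor Ghr rose from 55.3, 60.98 and 76.6 to 259, 288 and 312 CPM (2.19 ± 0.09) and Mstn, the growth inhibitor myostatin, from 48.6, 62.04 and 72.8 to 127, 185 and 260.5 CPM (1.63 ± 0.15). Of 23 oncofetal RNA-binding and chromatin genes 15 fell and none rose (median -2.39). The chromatin factor Hmga2 (-7.00), the RNA-binding protein gene Igf2bp2 (-6.19) and the transcription factor gene Sox11 (-8.22) fell, and Igf2bp1, at 59.5 to 88.1 CPM at E18.5, had no count in any adult library, at least 365-fold lower against 3 counts per adult library (783-fold on library totals).

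Collagens and other matrix genes mostly fell, and Col1a1 and Col3a1 were among the genes with the largest falls in CPM. Of 27 collagen genes 22 fell and 1 rose (median -3.29), from 3.90% ± 0.522 to 0.190% ± 0.0453 of all counts. Col1a1 fell from 4329.6, 5345 and 7290.5 to 182, 321 and 643 CPM (-4.00 ± 0.28) and Col3a1, the fine fibril collagen, from 4952, 5567 and 6589 to 338, 595 and 773 CPM (-3.29 ± 0.19). Col12a1, a collagen of fibril surfaces, fell further (-5.79), and the basement membrane collagen Col4a1 (-2.61) and Col15a1 (-1.31) fell less. The gene that rose, Col9a1 of cartilage, was low at both stages, at 0.254, 0.363 and 1.37 CPM and then 0.920, 1.94 and 4.34 CPM, and its call was lost with library totals (0.84). Of 35 matrix and remodelling genes 21 fell and 1 rose (median -2.17). Fbn2, the fetal fibrillin, fell from 494, 545 and 616 to 0.141, 0.553 and 0.817 CPM (-10.08 ± 0.22), far more than Fbn1 (-2.14), and periostin (Postn) fell from 1458, 1579 and 2001 to 9.12, 14.1 and 18.8 CPM (-6.87 ± 0.19). Decorin (Dcn) did not pass the 2-fold test, at 259, 295 and 362 CPM and then 359, 560.4 and 688 CPM (0.85 ± 0.15). In the basement membrane and dystrophin complex list 7 rose and 9 fell of 27 (16 fell with library totals), with Dmd up (1.95), the laminin chain Lama4 down (-2.71) and the muscle laminin chain Lama2 not past 2-fold (-0.72).

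Signals that shape the limb fell more often than they rose. Of 32 Wnt, Hedgehog and Notch genes 19 fell and 2 rose (median -1.63), of 29 axon guidance genes 18 fell and none rose (-1.57), and of 22 genes of BMP and TGF-beta signalling 7 fell and 1 rose (-0.53), with 16 falls under library totals. Over all tested genes 24.5% fell and 19% rose beyond 2-fold, so the BMP and TGF-beta falls lay not far from the background. Sfrp2, a secreted Wnt antagonist, fell from 30.4, 42.3 and 44.8 to 0.121, 1.97 and 2.90 CPM (-4.56 ± 0.34), and Epha3, an ephrin receptor of growing axons, from 15.5, 16.6 and 19.6 to 0.0699, 0.225 and 0.908 CPM (-5.75 ± 0.30). Limb patterning factors were mixed, with 11 down and 6 up of 30 (median -0.35), and 17 down with library totals and 5 down with a filter of 10 CPM. Their rises lay near the share of all tested genes. Pitx1, the factor that gives hindlimb identity, fell from 8.06, 9.57 and 13.7 to 0.0707, 0.141 and 0.979 CPM (-4.98 ± 0.39). Hoxc10, a homeobox gene of the hindlimb, rose from 29.3, 32.1 and 35.2 to 156, 169 and 180.1 CPM (2.40 ± 0.07), and Lbx1, a factor of migrating muscle precursors, also rose (2.89). Antisense transcripts run through the homeobox clusters, and the strand setting of the counting is not known.

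Some RNA regulators, and genes of defence and small-molecule metabolism, also moved. The splicing regulators Mbnl1 (3.26) and Rbfox1 (3.00) rose and Mbnl3 (-5.51) and Ptbp1 (-2.66) fell, in a list with 6 up (2 with library totals) and 6 down of 21. Over all tested genes 19% rose and 24.5% fell beyond 2-fold, so both counts of this list lay not far from the background. Of 22 antigen presentation and interferon genes 11 rose (4 with library totals) and none fell (median 1.45), with Cd74, the chaperone of class II molecules, going from 0.825, 1.64 and 2.36 to 20.2, 36.1 and 49.4 CPM (4.33 ± 0.27). Of 16 complement and acute phase genes 9 rose and none fell (2.05), with C3, the central complement protein, going from 0.253, 0.589 and 1.09 to 34.1, 94.4 and 172 CPM (7.20 ± 0.43). Among 26 antioxidant genes 15 rose (8 with library totals) and 1 fell (1.35), with the mitochondrial superoxide dismutase Sod2 up by 2.99. Of 27 polyamine and amino acid genes 16 rose (6 with library totals) and 6 fell (1.52). Amd1, an enzyme of polyamine synthesis, rose from 35.1, 42.02 and 47.4 to 1453, 1758 and 2536 CPM (5.54 ± 0.18), Smox, which oxidises spermine, rose by 4.85, and Psat1, of serine synthesis, fell from 66.6, 76.7 and 97.7 to 1.09, 2.14 and 3.66 CPM (-5.09 ± 0.20).

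Markers of the cell types a muscle holds were checked at both stages. Beside their counts stand the 19% of all tested genes that rose and the 24.5% that fell beyond 2-fold. All 12 skeletal fibre markers rose beyond 2-fold, with summed levels of 13440 to 24067 CPM at E18.5 and 180840 to 219900 CPM in the adult. Among these Xirp2, an actin-binding protein of the fibre, rose from 11, 28.4 and 37.8 to 6749.8, 6928 and 8454 CPM (8.13 ± 0.31). None of 13 endothelial markers tested passed the 2-fold test in either direction (median -0.17, summed levels 654 to 1010 and 632 to 912 CPM). This rests on the scaling, since with library totals their median was -1.27. The 14 listed endothelial markers took 0.0991% to 0.149% of all counts at E18.5 and 0.0435% to 0.0648% in the adult. Of 16 fibroblast markers 3 rose and 6 fell (12 fell with library totals), with summed levels of 1935 to 2325 and 1506 to 2586 CPM. Schwann cell markers fell in 6 of 11 (median -1.83, 407 to 521 and 39.7 to 136 CPM), led by Ngfr, a receptor of immature Schwann cells (-6.25). Leukocyte markers had 2 up and 2 down of 8 (1 up without any 1 of adult D, adult F, E18.5 A, E18.5 B or E18.5 F, and none up with library totals), with summed levels of 155 to 205 and 71.8 to 156 CPM. Pericyte markers had 2 up and 6 down of 12 (1150.3 to 1583 and 1086 to 1265 CPM). Tendon markers had 2 up and 3 down of 12, 5 down without adult library A and 7 with library totals (summed levels 492 to 898 and 295 to 759 CPM), and spindle markers 3 down of 7, 5 with library totals (275 to 370 and 76.9 to 279 CPM). In cartilage Acan was at 2.92 to 23.2 CPM at E18.5 and had no count in the adult, where Col2a1 stood at 0.420 to 2.31 CPM. Adipocyte markers stood at 251 to 530 CPM and then 842 to 2191 CPM, and 3 rose and 1 fell of 6 tested. Of these sums Car3, which fibres also make, held 127 to 348 and 440.0 to 1408 CPM. Cfd, another marker of this list, had no count at E18.5 and stood at 1.27 to 46.8 CPM in the adult, while Adipoq and Plin1 were too low to test. Erythroid markers summed to 61.2 to 216 CPM and 26.7 to 65.2 CPM, and of 12 skin markers 4 were tested, at 9.54 to 12.7 and 19.98 to 35.7 CPM. The part of these cells in the gene changes above was not tested.

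Some genes had few or no counts at 1 of the stages. In all, 66 genes had at least 100 counts in every E18.5 library and at most 3 in every adult library, and 9 genes showed the reverse. Arhgap36, which modulates Hedgehog signalling, was at 372, 595 and 687 CPM at E18.5 and had 5 counts in the adults together. Agtr2, the type of angiotensin receptor found in the fetus, was at 272, 299 and 350.3 CPM and then had 8 counts. Dcx, a microtubule protein best known from migrating neurons, was at 56.5 to 153 CPM at E18.5 and had no count in any adult library, at least 419-fold lower (904-fold on library totals). Nrk, a kinase of fetal tissues, fell from 750.1, 855 and 1162 to 0.159, 0.450 and 0.707 CPM (-10.98 ± 0.23). On the adult side, Slc15a5, a member of the peptide transporter family, was at 0, 0 and 0 CPM at E18.5 and 21.3, 58.5 and 60.02 CPM in the adult, at least 542-fold higher (256-fold on library totals). Tuba8, an alpha-tubulin, rose from 0.0621, 0.127 and 0.296 to 251, 269 and 348 CPM (10.63 ± 0.21), and Chac1, which degrades glutathione, from 0, 0.0164 and 0.127 to 49.7, 90.4 and 168 CPM (11.39 ± 0.52, resting on 7 counts at E18.5).

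Animals of a stage resembled each other in most genes. Among genes at 20 CPM or more, the median SD of log2 CPM was 0.133 at E18.5 (6276 genes) and 0.145 in the adult (6193 genes), and 6 and 56 genes had an SD over 1. The 6 became 2 without E18.5 library F and 9 without E18.5 library E. In the adult the widest spread was in Dynll2, a dynein light chain, at 0.635, 38.6 and 96.2 CPM, followed by the slow-fibre genes Tnnc1, Myh7, Tnni1 and Myh6, which were low in libraries A and D. At E18.5 it was in Rack1, a ribosomal scaffold protein, at 1.55, 13.8 and 119.9 CPM, and in C1qbp, a mitochondrial matrix protein, at 0.950, 35.1 and 37 CPM. Neither Rack1 (adjusted p = 0.292) nor C1qbp (adjusted p = 0.892) passed between stages, and the cause of this spread was not tested.

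The course of the gastrocnemius was set against that of the vastus lateralis, a thigh muscle that the labels also class as poor in slow fibres. A test of the difference between the 2 log2 changes with age called 1116 of 15506 genes (7.20%), 915 with a more positive change in the gastrocnemius (5.90%) and 201 with a more negative one (1.30%), and 57 (0.368%) and 6 (0.0387%) beyond 2-fold. The largest positive differences were in slow fibre genes, and 15 of 21 slow and cardiac sarcomere genes were among the positive calls, with 1 negative. In the adult vastus lateralis Myh7 was at 0 to 8.77 CPM, against 14.1 to 1343 CPM in the adult gastrocnemius on the scale of that fit. The difference of the changes was 9.50 ± 1.52 (log2, SE; adjusted p = 3.35e-04) for Myl2, 8.68 ± 0.856 for Myoz2, a Z-disc protein of slow fibres (adjusted p = 1.05e-06), and 7.91 ± 1.47 for Myh7 (adjusted p = 1.34e-03). Library B of the E18.5 vastus lateralis was high in these genes, with 1105 CPM of Myh7 against 35.5 to 168 CPM in the other 5. Positive calls also covered 37 of 42 oxidative phosphorylation genes, 19 of 22 of the tricarboxylic acid cycle and 21 of 25 of fatty acid oxidation, with no negative call in these lists. The negative calls were led by Cited1, a transcription cofactor (-2.99 ± 0.644), and Mybph, a myosin-binding protein that fell in the gastrocnemius, from 128 ± 23.5 to 37.1 ± 30.3 CPM, and stood at 136 ± 44.1 and 296 ± 182 CPM in the vastus lateralis (-2.92 ± 0.677). With limma-voom the differences for Myl2 and Myh7 were of similar size, 9.00 and 8.95, and did not pass (adjusted p = 0.267 and 0.377), while Myoz2 did (9.56, adjusted p = 0.03). With adult gastrocnemius libraries A and D left out, 1281 genes were called, 1011 positive and 270 negative.

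**Figure D5:**
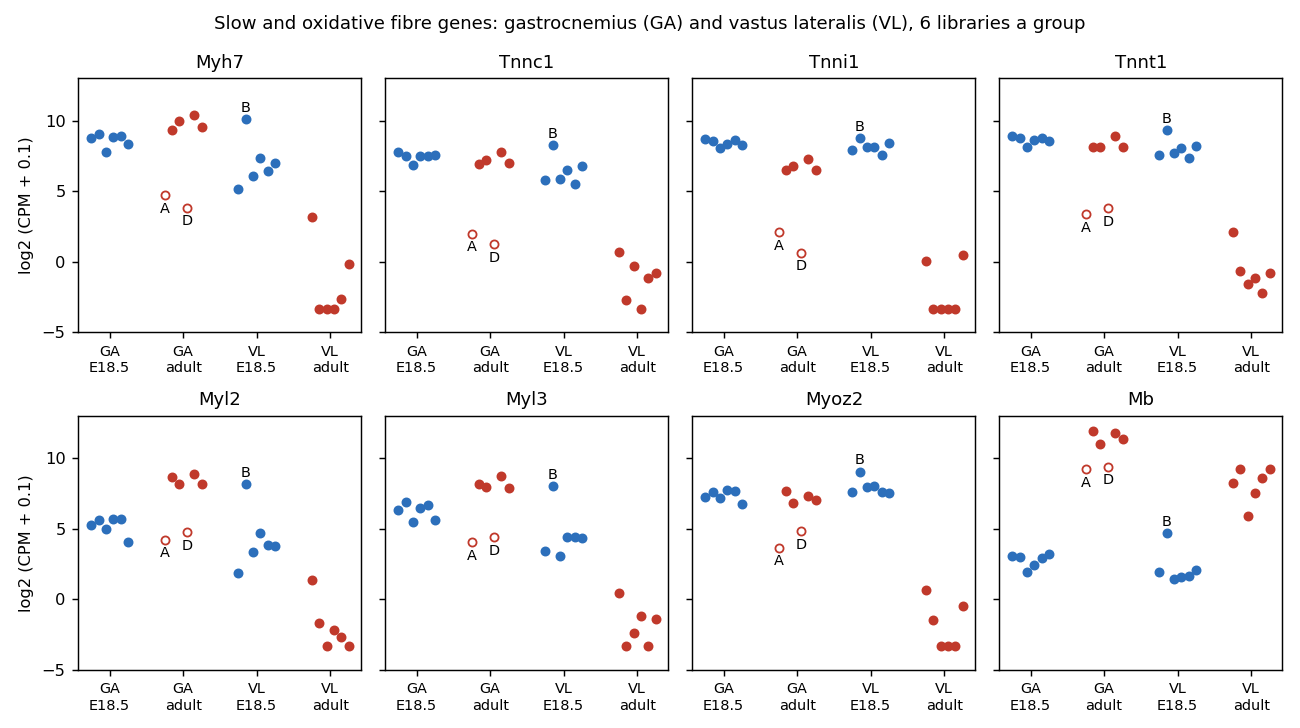
Each panel is a slow or oxidative fibre gene, with log2 (CPM + 0.1) in 6 libraries of each group, blue at E18.5 and red in the adult. Open red circles are adult gastrocnemius libraries A and D, which lie below the other 4, and B marks the E18.5 vastus lateralis library that lies above its group in Myh7, Myl2 and Myl3.

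Against the soleus, the slow-biased muscle of the same calf, the courses differed far more. Of 15650 genes 6418 (41.0%) had a different change with age, 3261 more positive (20.8%) and 3157 more negative (20.2%) in the gastrocnemius, and 762 (4.87%) differed beyond 2-fold, 412 positive (2.63%) and 350 negative (2.24%). Myh4 went from 82.8 ± 21.3 to 120230 ± 24689 CPM in the gastrocnemius and from 60.2 ± 39.4 to 104 ± 32.8 CPM in the soleus, a difference of 9.72 ± 0.553 (log2, SE; adjusted p = 8.75e-13). Actn3 (8.40 ± 0.803), Pvalb (7.07 ± 0.987) and Mss51, a mitochondrial protein of fast fibres (8.46 ± 0.413), differed likewise, and in the adult soleus they were at 21.04 ± 22.1, 57.5 ± 42.1 and 4.25 ± 1.89 CPM. In the other direction Atp2a2 rose in the soleus from 645 ± 116 to 16601 ± 1668 CPM and was at 520 ± 56.8 and 775 ± 569 CPM in the gastrocnemius (-4.11 ± 0.539, adjusted p = 1.44e-06). Sln fell from 139 ± 36.1 to 0.39 ± 0.365 CPM in the gastrocnemius and from 138 ± 41.2 to 40.9 ± 6.83 CPM in the soleus (-6.63 ± 0.427). Of 25 fatty acid genes 18 were more negative and 1 more positive, of 35 glycolysis genes 20 were more positive and 8 more negative, and of 42 oxidative phosphorylation genes 6 and 3 differed. All 8 leukocyte markers and 8 of 13 endothelial markers had the more negative change in the gastrocnemius. The direction of these counts rests on the scaling, since library totals gave 1216 positive and 6672 negative calls.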

How the data were processed

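RNA-seq of 12 gastrocnemius libraries was analysed, grouped by the stage and muscle in the labels. The authors' deposited table holds raw counts per gene for 27179 genes. Per the submitters' processing notes, FastQC 0.11.5, Trimmomatic 0.39.0, STAR 2.7.11, Subread 2.0.6 (featureCounts), DESeq2 1.44.0 and the mm10 build were used. For the annotation version and strand setting, the labels name nothing. Gene numbers were matched to symbols through the deposited comparison tables (18780) or RefSeq (6501), and 1898 had none. The deposited comparison tables give log2 fold changes by the authors, used for a single check of signs, and their p-values and mean counts were not used.

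Library totals were 19.2 to 31.2 in units of 1e6 counts. Counts were fitted with edgeR 4.0.16 (R 4.3.3, TMM scaling, filterByExpr, quasi-likelihood test, Benjamini-Hochberg adjustment over all genes tested), and glmTreat gave the test beyond 2-fold. Differences between muscles were interaction terms in fits of 24 libraries. TPM was computed from the counts and the gene length in the same deposited table. The method was tested on simulated data: for the stage comparison over 13344 genes, 97% of changes of 1.5 log2 units and 100% of changes of 3 were recovered, and 63% and 100% by the test beyond 2-fold. For the difference from vastus lateralis (14496 genes) the values were 83% and 98% (45% and 97% beyond 2-fold), and for that from soleus (14476 genes) 90% and 100% (44% and 99%). In each simulation only 100 genes changed per size, as many up as down, and all groups shared a base profile. The simulations therefore do not test the scaling between stages whose most abundant genes differ. DESeq2 1.42.0, limma 3.58.1 (voom), other scalings and filters, and leaving out each library were alternatives, and leaving out adult libraries A and D was chosen after seeing the data. The members and lists were chosen with earlier results of these data known. Named genes were those with the largest change or largest CPM difference, up to 5 per list and direction, exceptions within lists, paired genes, the largest differences between muscles, the widest spread and defining markers, and not all of them are printed. A few genes and 1 pair are not reported here. Arhgap36, Agtr2, Nrk and the others named for few counts at a stage come from the same rule for large changes. No pair of libraries matched within sampling noise (lowest chi-square per degree of freedom 10.8).

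Labels say that the muscles came from the same mice, and the date tags in the column headings, named here by the letters A to F, were used to link them. Deviations from group means correlated by a mean of 0.183 at E18.5 (0.0374 to 0.394) and 0.0527 in adults (-0.000268 to 0.0946) between gastrocnemius and vastus lateralis of the same letter, and by 0.177 and 0.0834 with soleus. Figures were drawn with matplotlib 3.10.9 in Python 3.11.15.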

Additional observations from a re-analysis of the deposited data

Results flagged for a closer look

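In 366 groups of 6 libraries examined for the named genes, 28 held a library set apart from the other 5 by Dixon's criterion, where chance gives about 1 in 20 groups. E18.5 library F held 8 of them. It was high in Top2a (287 CPM against 213 to 233), Ccne2 (18.7), Plagl1 (981), Dcx (152.9) and Col9a1 (1.37), and low in Dlk1 (595 CPM against 752 to 844), Slc2a4 (10.9) and Dbp (3.38). E18.5 library C was high in Acan (23.2 CPM against 2.92 to 9.53). Adult library A was high in the matrix genes Col1a1 (643 CPM against 182 to 349), Col12a1 (37.4) and Col2a1 (2.31), in Myl4 (9.73) and in Peg10 (7.62). Adult library B was high in Des (5350.0 CPM against 4596 to 4839), Kcna7 (336), Mbnl3 (1.09) and Myf5 (2.85) and low in Fbn1 (80.7). Adult library C was high in Neb (27110.0 CPM against 19750.0 to 22470.0) and Fbxo32 (280.2). Adult library D was high in Fbxo40 (514 CPM) and Ryr3 (10.4), and adult library E was low in Lbx1 (51.1). Adult library F was high in ATP6 (142 CPM against 16.1 to 21.3), Mcm6 (3.21), Uhrf1 (1.81) and Pgam1 (11.4). The stage calls of these genes are those in the report.

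The change with age differed from that in the vastus lateralis by the interaction test in the slow-fibre genes Myl2 (9.50), Myl3 (8.73), Myoz2 (8.68), Myh7 (7.91), Myh6 (7.55), Tnni1 (7.45), Tnnt1 (7.31) and Tnnc1 (6.86), all more positive in the gastrocnemius on the log2 scale. More negative were Cited1 (-2.99), Mybph (-2.92), Crabp1 (-2.77), Usp29 (-2.35), Actc1 (-2.30), the integrin gene Itga4 (-2.29), Dkk3 (-2.25) and Ripor2 (-2.04). Among these, limma-voom passed Myoz2, Mybph, Actc1, Itga4 and Ripor2.

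Against the soleus the change was more positive in Gm4841 (10.39), Myh4 (9.72), Mss51 (8.46), Actn3 (8.40), Cntnap2 (7.74), the cadherin gene Cdh4 (7.12), Pvalb (7.07) and Ighm (6.77), the immunoglobulin heavy chain gene. It was more negative in Sln (-6.63), Dcx (-5.62), Tecrl (-4.95), Sgo2a (-4.61), the sodium channel gene Scn2a (-4.59), Fhl2 (-4.26), the protease gene Adamts8 (-4.20) and Atp2a2 (-4.11). The values for Gm4841, near 0 counts at E18.5, and Dcx, at 0 in the adult gastrocnemius, depend on the fit's prior count. Dcx did not pass with limma-voom.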

How the results depend on the processing

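With library totals alone, 2372 genes were called higher and 10649 lower, 1061 rose and 7343 fell beyond 2-fold, and the soleus comparison gave 1216 positive and 6672 negative calls. The medians of 4 lists then changed sign, to -0.12 for mitochondrial ribosome and import, -0.70 for heat shock, -0.18 for the proteasome and -0.18 for immediate early genes, and so did Dcn (-0.24) and Ung (-0.27). List counts that moved by more than 1.5 times under library totals or upper-quartile scaling stand beside those lists above. Among those not given there were 2 rises among immediate early genes and 8 falls among cell cycle brakes with library totals. A minimum of 4-fold left 2877 genes (1084 rose, 1793 fell). A filter of 10 CPM in 6 libraries left 2273 falls beyond 2-fold, and it left 2 rises among antigen presentation and 3 among complement genes, since it tests fewer genes. DESeq2 gave 369 negative differences from vastus lateralis, and the cause was not tested. Outside the 20 most abundant genes of each library, the fast sarcomere share was 1.69% at E18.5 and 4.11% in the adult, collagens 1.90% and 0.304%, and glycolysis 1.56% at E18.5. This setting takes abundant members out of both the groups and the totals.

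Leaving out each library in turn gave 11910 to 12131 calls between stages (5527 to 5626 higher, 6379 to 6540 lower) and 6337 to 6497 beyond 2-fold (2776 to 2809 and 3554 to 3703). It gave 859 to 1259 for vastus lateralis (710 to 1036 positive, 139 to 255 negative), 6001 to 6501 for soleus (3062 to 3278 and 2939 to 3223), and a median SD of 0.111 to 0.139 at E18.5 and 0.140 to 0.149 in the adult. Leaving out adult A and D turned Actn2 to 0.36. Tnni1 was not past 2-fold without adult F (adjusted p = 0.0568) or E18.5 F (0.0508). With the replicate block that pairs the muscles of an animal, 1458 genes differed from vastus lateralis (1192 positive, 266 negative) and 7004 from soleus (3480 and 3524). The block moved no count by over 1.5 times. No paired analysis was possible between the stages because different animals were used. Depth limits what can be said of genes near the floor of 0.150 to 0.238 CPM in adult and 0.0633 to 0.0985 CPM in E18.5 libraries. Of 197 genes checked between stages, 4078 values under the alternatives kept their call or lack of one, 32 lost the call and 16 gained it. Another 3 changed sign with a call in at least 1 of the fits compared. Sign changes of genes called in neither fit count among the 4078. Examples are Myh7, at 0.64 in the main fit and -0.65 with limma-voom, and Atp2a2, at 0.53 and then -0.55 with library totals.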

Other observations

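Genes on the X chromosome fell more often than the rest, as a count with no test. Of 511 tested, 213 fell beyond 2-fold (41.7%) and 55 rose (10.8%), with a median log2 change of -0.76, against 24.5% and 19% of all genes. Capn6, a calpain-like protein of fetal muscle, went from 1368, 1400.1 and 1447 CPM at E18.5 to 2.97, 5.86 and 8.18 CPM in the adult (-7.95 ± 0.23), and Tceal3 from 44.8, 60.8 and 62.7 to 0.159, 0.321 and 1.13 CPM (-7.12 ± 0.24). Among those that rose, Tsc22d3, a gene induced by glucocorticoids, went from 38.6, 44.6 and 51.2 to 287, 341 and 456 CPM (2.98 ± 0.11), and Asb11, a ubiquitin ligase subunit of muscle, from 0.359, 1.90 and 2.71 to 111, 121 and 138 CPM (6.16 ± 0.29). In each of these 4 genes, named after their values were seen, the stages did not overlap.

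Reads over microRNA genes come from longer transcripts in these mRNA libraries and do not measure the mature RNA. Of 46 such genes tested, 26 lie in the imprinted region of chromosome 12 that also holds Dlk1 (chr12:109712810-109747960, RefSeq, GRCm38.p6), and all 26 fell beyond 2-fold (median -7.86). Of the other 20, 4 rose and 5 fell, and the examples below were chosen after their values were seen. Mir133b was at 14.7, 19.1 and 21.98 CPM at E18.5 and 0, 0.595 and 3.61 CPM in the adult (-4.06 ± 0.46), and Mir1839 at 1.50, 1.95 and 2.42 CPM and then 16.7, 20.2 and 24.2 CPM (3.38 ± 0.15).

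By length, the median log2 change was -0.28 for genes up to 600 bases, 0.28 for 600 to 1000, 0.16 for 1000 to 2000, -0.15 for 2000 to 4000 and -0.32 for those over 4000 bases.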
